A study of Mus musculus with 6 samples.

Results

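The genes described are the caveolins Cav1 and Cav2 and the cavins Cavin1, Cavin2 and Cavin3, which are 5 of the 54446 genes in the table. The set was chosen by a measured value, the like rise of Cav2 after both platinum drugs, so the drug changes of Cav2 are given as a description with no test. All 5 genes passed the filter on low counts, as did 14956 genes in total. Gene expression was measured by poly(A) RNA-seq in TRAMP-C2 cells, a male C57BL/6 mouse prostate cancer line derived from a TRAMP tumour, in which the probasin promoter drives a viral oncogene. Cells received no drug (control), oxaliplatin (Oxali, 2 µM) or cisplatin (Cispl, 2 µM), and each group held 2 libraries taken at 24 h. All groups were grown in the same medium, which contained bovine insulin and an androgen precursor. These platinum compounds form adducts with DNA, and the comparisons ask how each low-dose drug changed transcript levels and whether the drugs differed. The labels do not say that replicates came from separate cultures, so p-values measure only the spread between these samples, which may be technical.

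Total expected counts ranged from 21345312 to 24041767 per library, and a gene without counts may still have been present at up to 3 counts, or 0.125 to 0.141 CPM (counts scaled by the library total), a bound for counting error alone. Normalised counts below are expected counts divided by a size factor for each library, and positions refer to mouse build GRCm38. Both drug comparisons share the same control libraries.

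Caveolae are small flask-shaped pits of the plasma membrane that are rich in cholesterol and are known for buffering membrane tension, for endocytosis and for holding signalling receptors. Caveolins are hairpin proteins inserted in the inner leaflet of the membrane, and CAV1 forms the oligomers that build a caveola outside striated muscle, with CAV2 as its partner. Cavins are soluble proteins that coat the bulb from the cytosol. CAVIN1 is required for the coat to form, CAVIN2 is known to promote membrane curvature, and CAVIN3 links the coat to signalling partners. CAV3 and CAVIN4 are the muscle members.

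RefSeq promoter windows of GRCm38.p6 were at hand for 4 of the 5 genes, all but Cavin3. The bases upstream of 3 annotated starts are printed here, since Cav2 and Cav1 are neighbours on chromosome 6 that were both higher after either drug, whereas Cavin2 on chromosome 1 was called higher after Oxali and not after Cispl. Each window spans 250 bases on the plus strand and is written 5′ to 3′. The windows lie at chr6:17280935-17281184 for Cav2, chr6:17306085-17306334 for the upstream start of Cav1 and chr1:51288876-51289125 for Cavin2. Capitals mark matches, on either strand, to the motifs searched.
Cav2: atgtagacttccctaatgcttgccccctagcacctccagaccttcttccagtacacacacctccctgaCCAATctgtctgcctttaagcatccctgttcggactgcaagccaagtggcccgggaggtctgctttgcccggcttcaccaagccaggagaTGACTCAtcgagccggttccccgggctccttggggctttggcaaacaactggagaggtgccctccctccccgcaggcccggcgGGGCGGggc
Cav1: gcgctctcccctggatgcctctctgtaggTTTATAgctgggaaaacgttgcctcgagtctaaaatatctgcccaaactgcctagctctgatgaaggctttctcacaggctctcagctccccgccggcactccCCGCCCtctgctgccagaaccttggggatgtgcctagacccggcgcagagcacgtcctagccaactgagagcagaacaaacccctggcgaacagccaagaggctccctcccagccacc
Cavin2: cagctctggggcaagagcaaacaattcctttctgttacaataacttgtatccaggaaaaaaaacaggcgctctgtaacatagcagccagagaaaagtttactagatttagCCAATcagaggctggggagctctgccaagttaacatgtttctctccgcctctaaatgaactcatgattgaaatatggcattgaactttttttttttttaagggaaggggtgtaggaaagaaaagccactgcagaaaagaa

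The motifs searched were the TATA box TATAAA, the CCAAT box CCAAT, the GC box GGGCGG, the AP-1 motif TGANTCA, the TEAD motif GGAATG and the CArG box. The Cav2 window held a CCAAT box at position -182 from the start, an AP-1 match at -92 and a GC box at -9. The Cav1 window held a TATA box match at -221 and a GC box at -118, both on the minus strand, and its TATA box match was thus far from the start. The Cavin2 window held only a CCAAT box, at -140. No 2 matches overlapped in these windows. The windows of Cavin1, which are not printed, held a CCAAT box, a GC box and a TEAD match. The window of the downstream Cav1 start, also not printed, held none of the motifs. Among 32536 promoter windows of the same length, 6.73% held the AP-1 motif, 33.8% the CCAAT box, 33% the GC box, 12.3% the TATA box, 12.6% the TEAD motif and 1.48% the CArG box. The GC content was 62% for Cav2, 59.6% for Cav1 and 40.4% for Cavin2, against a median of 52.4% over all windows. The Cav2 and Cav1 windows each held 10 CpG sites and the Cavin2 window held 2, against a median of 6 over all windows. These matches are a description of the letters and were not tested for any role.

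Transcripts of all 5 genes were present in every library, and together they made up 0.134% to 0.145% of the library counts. As normalised counts per kb of exon, the scale on which genes can be compared, Cavin1 was the most abundant in control cells at 5416 ± 230 (SD, n = 2, as for all means). Cav1 followed at 1960 ± 32.5, Cavin3 at 814 ± 35.9, Cav2 at 520 ± 7.27 and Cavin2 at 276 ± 8.36. On the mean over 6 libraries Cavin1 ranked 220 from the top of 14946 genes with a level, Cav1 505, Cavin3 1711, Cav2 1902 and Cavin2 3620.

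The order changed between groups only for Cav2 and Cavin3. The level of Cavin3 per kb was above that of Cav2 in control cells, whereas after Oxali the levels were 757 ± 42.6 for Cavin3 and 739 ± 3.23 for Cav2, a gap smaller than the spread of Cavin3. After Cispl the level of Cav2 was 742 ± 6.14 and that of Cavin3 655 ± 4.46. With the length of the longest transcript in place of all exons, Cav2 stood at 901 after Oxali and was above Cavin3 in that group too. The muscle genes were at or near 0. Cav3 had 0 counts in all 6 libraries, and Cavin4 had 19.5 to 27.6 normalised counts. Cavin4 had no adjusted p in either comparison of Oxali and no call in Cispl against control (DESeq2 adjusted p = 0.809).

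**Figure D1:**
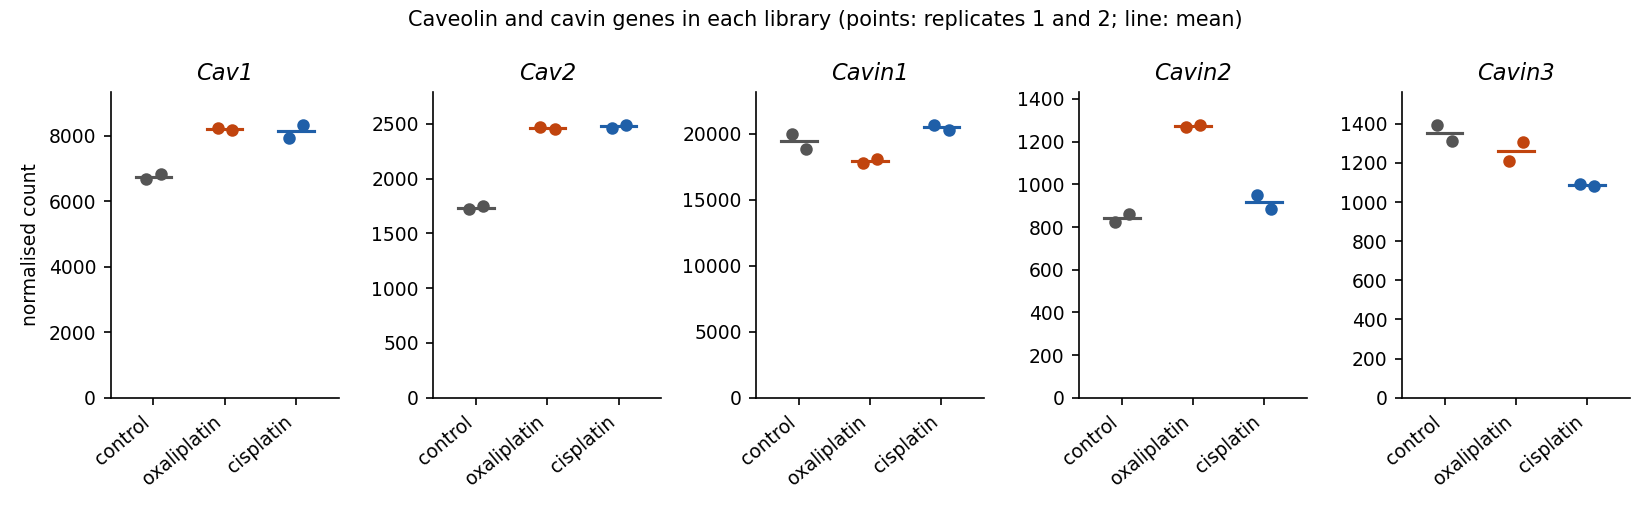
Normalised counts (y axes from 0, a separate scale for each gene) of Cav1, Cav2, Cavin1, Cavin2 and Cavin3 in the control, oxaliplatin and cisplatin libraries. Points are the 2 replicates and lines their mean. Cav1 and Cav2 sat above control after both drugs, Cavin2 stood highest after oxaliplatin, and Cavin3 was lowest after cisplatin.

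Cav2, the partner of CAV1 (ENSMUSG00000000058, chr6:17281185-17289115, plus strand), had normalised counts of 1718 and 1753 in control replicates 1 and 2, 2471 and 2456 after Oxali, and 2462 and 2491 after Cispl. All 4 drug libraries were above both control libraries, and the Oxali and Cispl values overlapped. The means were 1736 ± 24.3 in control, 2464 ± 10.8 after Oxali and 2476 ± 20.5 after Cispl. The log2 fold change was 0.51 ± 0.06 (SE) after each drug, or 1.42-fold for Oxali and 1.43-fold for Cispl. Between the drugs the log2 difference was -0.01 ± 0.06, with a 95% interval from -0.12 to 0.11. Since these values chose the gene, they carry no p. They ranged from 0.49 to 0.52 for Oxali and from 0.46 to 0.53 for Cispl over 14 alternative analyses.

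Cav1, which forms the caveolar scaffold (ENSMUSG00000007655, chr6:17306335-17341452, plus strand), had normalised counts of 6670.3 and 6829 in control, 8248 and 8159 after Oxali, and 7936 and 8332 after Cispl. Both drugs placed their libraries above both control libraries, and both Oxali values lay between the Cispl values. Cav1 rose by a log2 value of 0.28 ± 0.04 after Oxali (1.22-fold, DESeq2 adjusted p = 2.26e-09) and by 0.27 ± 0.04 after Cispl (1.20-fold, DESeq2 adjusted p = 1.01e-08). The drugs did not differ detectably, with a log2 difference of 0.01 ± 0.04, a 95% interval from -0.07 to 0.10 and a DESeq2 adjusted p of 0.88. The sign of this difference turned without replicate 1 of Cispl, to -0.02. The calls against control held in all 14 alternatives, with adjusted p up to 0.00132.

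Of the markers of endothelium, a cell type rich in caveolae, Kdr was higher after both drugs too, at 20.7 and 24.9 normalised counts in control and 49.1 to 62.7 in the 4 drug libraries. Kdr was called for Oxali (DESeq2 adjusted p = 0.0259) and for Cispl (DESeq2 adjusted p = 0.0109). These calls were lost in 8 and 7 of 14 alternatives, mostly where Kdr had no adjusted p. The summed list of 7 markers had 27.6 to 30.1 normalised counts in control, 54.2 to 65.0 after Oxali and 57.3 to 75.5 after Cispl. The other 6 markers were below 10 in every library, the defining marker Cdh5 at or below 1.02, against at least 6670.3 for Cav1.

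Per kb and within each library, the ratio of Cav2 to Cav1 was 0.266 and 0.265 in control, 0.309 and 0.311 after Oxali, and 0.320 and 0.309 after Cispl. Control libraries were the lowest, and the ranges of the drugs overlapped. A ratio within a library does not depend on scaling between libraries. With 2 libraries in each group the smallest two-sided exact permutation p is 0.333, so no ratio was tested, and the numerator here is the gene chosen for its change.

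The genes lie head to tail, with 17.2 kb between the end of Cav2 and the start of Cav1. The nearest tested protein-coding genes beyond them were Tes, which encodes a focal adhesion protein and ends 175 kb before Cav2, and Met, which encodes the hepatocyte growth factor receptor and starts 122 kb after Cav1. Tes had a log2 value of -0.08 ± 0.05 after Oxali (DESeq2 adjusted p = 0.268) and 0.08 ± 0.05 after Cispl (DESeq2 adjusted p = 0.178). Met had -0.05 ± 0.05 after Oxali (DESeq2 adjusted p = 0.509) and fell by 0.24 ± 0.05 after Cispl (DESeq2 adjusted p = 1.89e-05). Neither neighbour was called higher than control after a drug. In Oxali against Cispl, Met had 0.19 ± 0.05 (DESeq2 adjusted p = 0.00152) and Tes had -0.16 ± 0.05 (DESeq2 adjusted p = 0.00546). Each of these calls between the drugs was lost in 4 of 14 alternatives. The annotated antisense gene Gm15581, which spans both caveolin genes, had 0 or 1 count in each library. Whether counting used strand is not given in the sources used here, and without strand the reads of a gene and its antisense partner cannot be told apart.

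**Figure D2:**
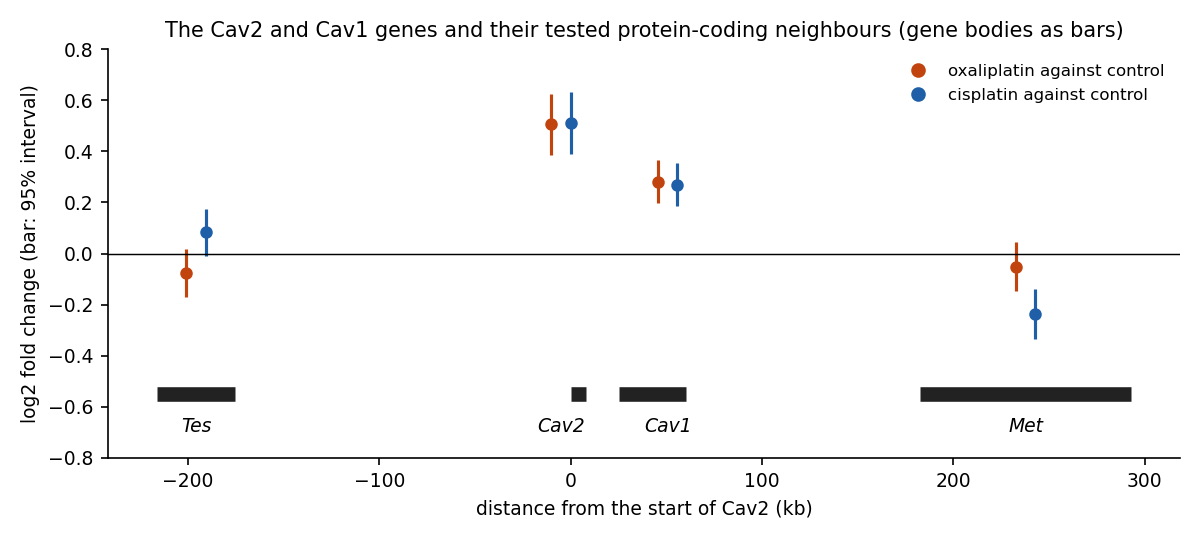
Log2 fold changes against control (y axis, points with 95% intervals, both drugs side by side at each gene) for Tes, Cav2, Cav1 and Met, over the distance from the start of Cav2 in kb (x axis, gene bodies as bars at the bottom). Cav2 at 0.51 and Cav1 near 0.28 stood above 0 after both drugs, and neither neighbour did.

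Among the cavins each gene had its own pattern over the groups. Cavin1, whose product is required for the caveolar coat (ENSMUSG00000004044, chr11:100956733-100970887, minus strand), had normalised counts of 20011 and 18845 in control, 17790.4 and 18085 after Oxali, and 20682 and 20318 after Cispl. The Oxali libraries were the lowest and the Cispl libraries the highest, and no groups overlapped, although the control libraries spread widely. Against Cispl, Oxali gave a log2 difference of -0.19 ± 0.04 (DESeq2 adjusted p = 1.12e-05), a call that held in all 14 alternatives with adjusted p up to 0.0164.

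Against control, Cavin1 fell by 0.12 ± 0.04 on the log2 scale after Oxali (0.923-fold, DESeq2 adjusted p = 0.0158). This call was lost without replicate 1 of control (adjusted p = 0.268), replicate 1 of Oxali (0.245) or replicate 2 of Oxali (0.126). After Cispl the log2 value was 0.08 ± 0.04 (DESeq2 adjusted p = 0.116), and without replicate 1 of control it was 0.12 with an adjusted p of 0.0168. Both results against control thus changed call in some fits with 1 library left out, where calls over all genes also became fewer. The nearest tested genes were Stat3, with no call against control, and Atp6v0a1, a subunit of the vacuolar proton pump, which fell by 0.37 ± 0.08 after Oxali (DESeq2 adjusted p = 0.000102, lost without replicate 2 of Oxali at 0.0516) and by 0.48 ± 0.08 after Cispl (DESeq2 adjusted p = 2.88e-07).

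Cavin2, the curvature-promoting cavin (ENSMUSG00000045954, chr1:51289126-51302960, plus strand), had normalised counts of 825 and 861 in control, 1268 and 1279 after Oxali, and 949 and 885 after Cispl. The Oxali libraries were far above the other 4, and the Cispl libraries were slightly above control. Cavin2 rose by 0.60 ± 0.09 on the log2 scale after Oxali (1.51-fold, DESeq2 adjusted p = 1.45e-09). After Cispl the log2 value was 0.12 ± 0.09 (DESeq2 adjusted p = 0.341), with a 95% interval from -0.06 to 0.30. The difference between the drugs was itself called, at 0.47 ± 0.09 (DESeq2 adjusted p = 2.50e-06). The calls for Oxali against control and against Cispl held in all 14 alternatives, with adjusted p up to 0.000572 and 0.0145, respectively. Of the nearest tested genes, Tmeff2 was not called against control, and Nabp1, a single-stranded DNA-binding protein, had 0.48 ± 0.18 after Cispl (DESeq2 adjusted p = 0.0275, lost in 9 of 14 alternatives) and no call after Oxali. The overlapping antisense gene 9330175M20Rik had 0 or 1 count in each library.

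Some smooth muscle markers were also higher after Oxali. The summed normalised counts of the list (Myh11, Acta2, Cnn1, Des, Tagln) were 16642 to 17242 in control, 22863 to 23039 after Oxali and 17141 to 17473 after Cispl. Acta2, Tagln and Cnn1, which encode contractile and actin-binding proteins, rose after Oxali by 0.36 ± 0.04, 0.59 ± 0.04 and 0.71 ± 0.10 (DESeq2 adjusted p = 8.73e-18, 4.60e-40 and 5.67e-12). After Cispl, where Cavin2 was not called, Tagln rose by 0.23 ± 0.04 (DESeq2 adjusted p = 1.73e-06), Cnn1 had 0.24 ± 0.10 (DESeq2 adjusted p = 0.0463, lost in 12 of 14 alternatives) and Acta2 had -0.07 ± 0.04 (DESeq2 adjusted p = 0.207). The defining markers Myh11 and Des stayed at 2.79 to 16.4 normalised counts in all 6 libraries. The part of such cells or of these genes in the Cavin2 result was not tested. In bulk samples a change in the number of cells of a type and a change in RNA per cell cannot be told apart.

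Cavin3, which links the coat to signalling partners (ENSMUSG00000037060, chr7:105480083-105482300, minus strand), had normalised counts of 1395 and 1310.4 in control, 1209 and 1309 after Oxali, and 1093 and 1083 after Cispl. The Cispl libraries were the lowest, and the higher Oxali library was just below the lower control library. Cavin3 fell by 0.31 ± 0.09 on the log2 scale after Cispl (0.804-fold, DESeq2 adjusted p = 0.00167). The call was lost without replicate 1 of control (adjusted p = 0.0872), replicate 1 of Cispl (0.062) or replicate 2 of Cispl (0.0757). After Oxali the log2 value was -0.10 ± 0.09 (DESeq2 adjusted p = 0.423). The drugs differed by 0.21 ± 0.09 with a DESeq2 adjusted p of 0.0591, which fell below the threshold with edgeR (0.0187), TMM scaling (0.049) and total-count scaling (0.0234). Its nearest tested genes, Fam160a2 and Smpd1, had no call in any comparison, and the overlapping gene Gm45667 had 0 to 4.07 counts.

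**Figure D3:**
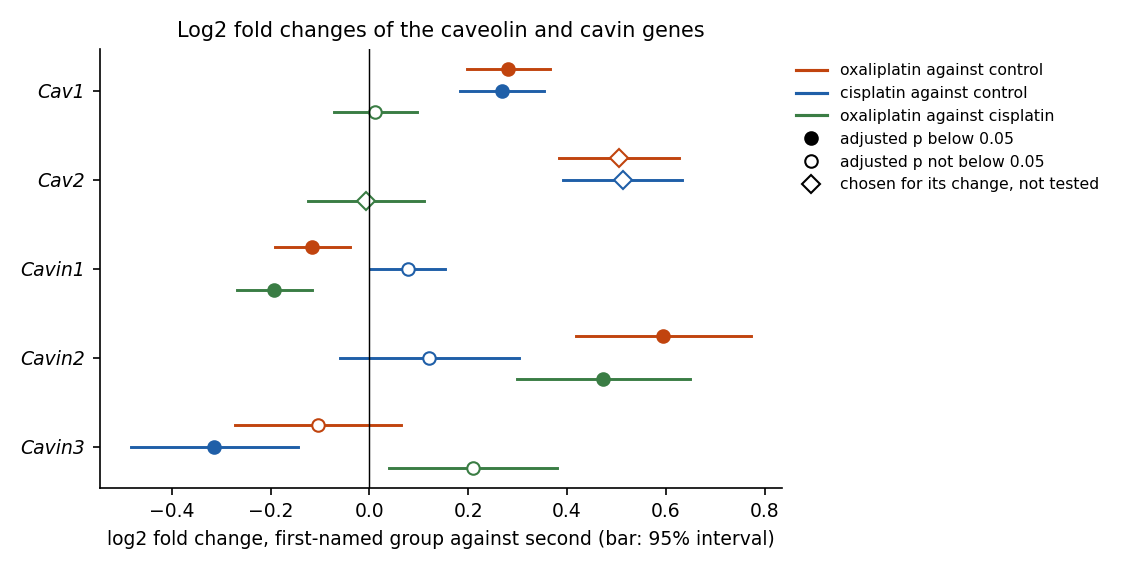
Log2 fold changes (x axis, bars are 95% intervals) of the caveolin and cavin genes in 3 comparisons. Filled circles mark a DESeq2 adjusted p below 0.05, and diamonds mark Cav2, which was chosen for its change and not tested. Between the drugs Cav1 lay near 0, whereas Cavin2 lay at 0.47 and Cavin1 at -0.19. Cav2 also lay near 0 there, which follows from its choice for a like rise after both drugs.

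Of the 4 genes other than Cav2, Oxali gave 2 calls higher (Cav1 and Cavin2) and 1 lower (Cavin1), where 10.7% of all tested genes were called higher and 9.5% lower. Cispl gave 1 call higher (Cav1) and 1 lower (Cavin3), against 15.7% and 12.4% of all tested genes. Between the drugs 1 gene was called higher after Oxali (Cavin2) and 1 lower (Cavin1), against 8.62% and 11.3%. Because the family was chosen on these contrasts, nothing is read from these counts. Groups of 2 libraries did not overlap for 64.8% of tested genes in Oxali against control, 69.4% in Cispl against control and 68% between the drugs, so a lack of overlap alone is the usual case here. Scaling by total counts moved the split of calls over all genes for Cispl from 2355 higher and 1848 lower to 1826 and 2382, and between the drugs from 1289 and 1688 to 1619 and 1362. It turned the direction of none of the 4 caveolin and cavin genes tested.

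Ratios within libraries described how the makeup of the family shifted. The ratio of Cavin1 to Cav1 per kb was 2.88 and 2.65 in control, 2.07 and 2.13 after Oxali, and 2.502 and 2.34 after Cispl. The groups did not overlap, with control the highest and Oxali the lowest. The ratio of Cavin2 to Cavin1 was 0.0484 and 0.0537 in control, 0.0837 and 0.0831 after Oxali, and 0.0539 and 0.0511 after Cispl. Only the Oxali libraries stood apart in that ratio, and control and Cispl overlapped.

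The ratio of Cavin3 to Cavin1 was 0.1504 and 0.1500 in control, 0.147 and 0.156 after Oxali, and 0.114 and 0.115 after Cispl. There the Cispl libraries stood apart as the lowest and control fell inside the Oxali range. The ratio of Cavin2 to Cavin3, which was not among the ratios first planned, was 0.322 and 0.358 in control. It was 0.571 and 0.532 after Oxali, and 0.472 and 0.445 after Cispl. Control was lowest, Cispl between and Oxali highest, without overlap.

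**Figure D4:**
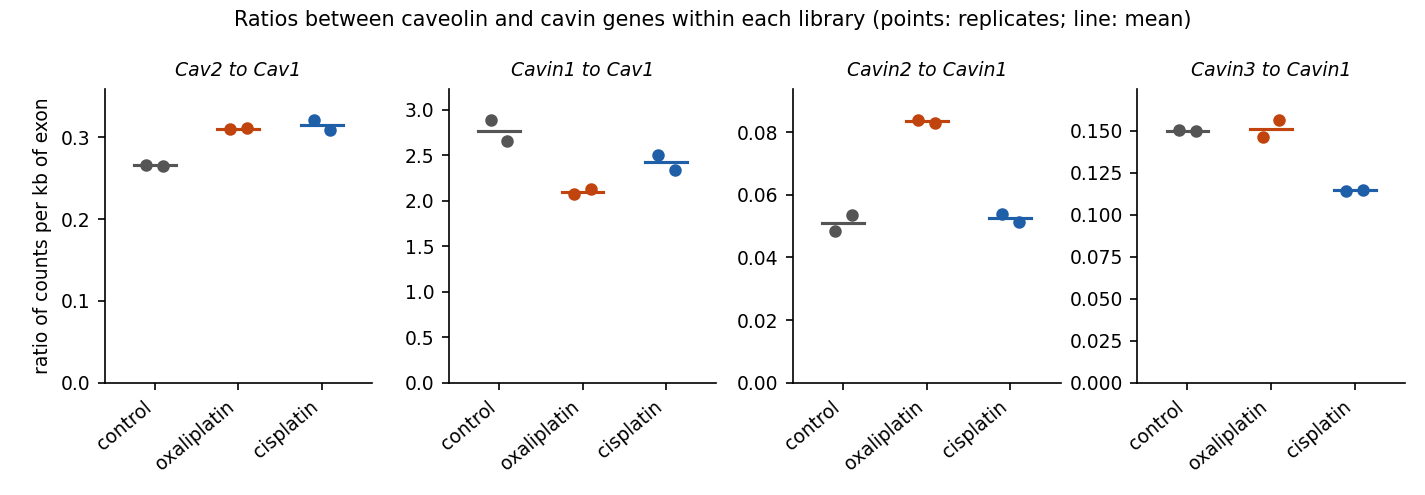
Ratios of counts per kb of exon (y axes from 0) within each library for Cav2 to Cav1, Cavin1 to Cav1, Cavin2 to Cavin1 and Cavin3 to Cavin1. Points are the 2 replicates of each group and lines their mean. Cavin2 to Cavin1 was near 0.083 after oxaliplatin and near 0.05 in the other groups, and Cavin3 to Cavin1 was near 0.115 after cisplatin and near 0.15 in the others.

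The genes with the pattern nearest to Cav2 were found by the root mean square difference of gene-centred log2 values over the 6 libraries, among 10730 genes with a mean of at least 100 normalised counts. They were Pa2g4 at 0.0195, Chchd4 at 0.0196, Nip7 at 0.0205, Gprc5b at 0.0217 and Ftsj3 at 0.0233. Cav1 was at 0.112 and ranked 471, with the same direction and smaller changes. Nearest to Cav1 were Foxm1 at 0.0124, Wdr36 at 0.0131 and Cse1l at 0.0145, and Cav2 ranked 2307 from Cav1. Among the other members, Cavin2 ranked 3184 from Cav2, Cavin1 5345 and Cavin3 8430. These distances are a description over 6 libraries that share controls and carry no p.

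Among all tested genes the share called was 10.7% higher and 9.5% lower after Oxali and 15.7% higher and 12.4% lower after Cispl. These shares, here and below, are over 14956 genes, of which 2900 for Oxali and 1740 for Cispl had no adjusted p. Such genes could not be called, so the shares among genes that could be called were higher. Of 14 listed genes of the caveola neck and of membrane bending 13 were tested, of which 5 were called higher and 2 lower after Cispl, and 2 higher and 1 lower after Oxali. The count after Oxali was near the share over all genes. The median log2 value was -0.09 after Cispl, opposite in sign to most calls, and 0.01 after Oxali, against medians of -0.00083 and -0.0029 over all tested genes. Ehd4, an EHD-family membrane ATPase, rose by 0.65 ± 0.07 after Cispl (DESeq2 adjusted p = 7.95e-18) and by 0.29 ± 0.07 after Oxali (DESeq2 adjusted p = 0.000648). Bin1, a membrane-curving BAR protein, rose by 0.39 ± 0.06 after Cispl (DESeq2 adjusted p = 6.53e-09). Flna, the actin crosslinker filamin A that binds caveolin-1, fell by 0.32 ± 0.04 after Cispl (DESeq2 adjusted p = 1.12e-11).

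The other genes called after Cispl were Ehd1 at 0.27, Dnm2, the ubiquitous dynamin, at 0.25, Pacsin2, an F-BAR protein of caveolae, at 0.16, and Dnm1, the neuronal dynamin, at -0.23. Bin1 was also called after Oxali at 0.18 (DESeq2 adjusted p = 0.0209). Ehd2, the ATPase at the caveola neck, fell by 0.17 ± 0.04 after Oxali (DESeq2 adjusted p = 0.000734) and had -0.09 ± 0.04 after Cispl (DESeq2 adjusted p = 0.101). Between the drugs 1 gene was called higher after Oxali, Flna, and 6 lower. Of the 7 calls after Cispl, 5 held in all 14 alternatives (Bin1, Ehd4, Flna, Ehd1 and Dnm2), and none of the 3 after Oxali did. Without replicate 1 of Oxali the list had 0 calls for that drug, and without replicate 2 of control or of Oxali it had 1. Dnm3, near the limit of detection, had no adjusted p, and Pacsin1, with 0 to 3 counts, was not tested.

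**Figure D5:**
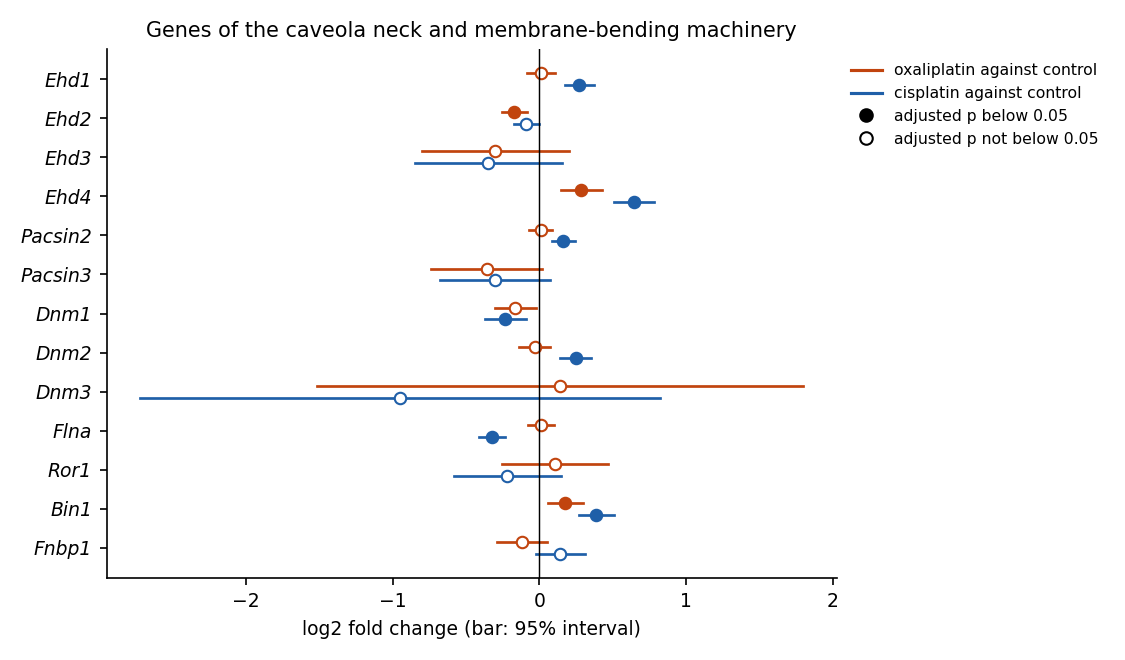
Log2 fold changes against control (x axis, bars are 95% intervals) of the 13 tested genes of the caveola neck and membrane-bending list, for oxaliplatin and cisplatin. Filled circles mark a DESeq2 adjusted p below 0.05. Ehd4, Bin1, Ehd1, Dnm2 and Pacsin2 stood above 0 after cisplatin, and Flna and Dnm1 below.

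Receptors and enzymes known from caveolae included several that were called lower after Cispl. Of 15 listed genes 13 were tested, with 1 called higher and 7 lower after Cispl (median -0.20) and 0 higher and 2 lower after Oxali (median -0.08), where 15.7% and 12.4% of all tested genes were called after Cispl and 10.7% and 9.5% after Oxali. Pdgfrb, a receptor of platelet-derived growth factor, fell by 0.47 ± 0.06 after Cispl (DESeq2 adjusted p = 4.15e-12). Egfr, the epidermal growth factor receptor, fell by 0.41 ± 0.05 (DESeq2 adjusted p = 4.33e-13) and Insr, the insulin receptor, by 0.52 ± 0.12 (DESeq2 adjusted p = 0.000166). After Oxali these 3 genes had 0.04, -0.09 and -0.08 and no call. Of the 8 calls after Cispl in this list only those of Pdgfrb and Egfr held in all 14 alternatives, and that of Insr was lost without replicate 2 of control. Neither of the 2 calls after Oxali held in all 14 alternatives.

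Scarb1, a lipoprotein receptor, moved in opposite directions, with a fall by 0.27 ± 0.07 after Oxali (DESeq2 adjusted p = 0.00254) and a rise by 0.28 ± 0.07 after Cispl (DESeq2 adjusted p = 0.00101). The difference between the drugs was -0.54 ± 0.07 (DESeq2 adjusted p = 1.01e-11) and held in all 14 alternatives, whereas the fall after Oxali was lost without any 1 of the 4 libraries compared, with adjusted p up to 0.126, and the rise after Cispl without replicate 2 of control or of Cispl, with adjusted p up to 0.103. Adcy6, an adenylate cyclase, fell by 0.21 ± 0.07 after Oxali and by 0.30 ± 0.07 after Cispl (DESeq2 adjusted p = 0.0179 and 0.000242), and these calls were lost in 7 of 14 alternatives for Oxali and without replicate 1 of Cispl (adjusted p = 0.0560) for Cispl. Tgfbr1, a TGF-β receptor, had -0.24 ± 0.10 after Oxali (DESeq2 adjusted p = 0.0504). Cd36, at 0 in every library, and Nos3, with 1 to 8.65 counts, were not tested.

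Among 10 kinases and focal adhesion genes linked to caveolin, Oxali gave 4 calls higher and 1 lower (median 0.06) and Cispl 1 higher and 0 lower (median 0.09), against 10.7% and 9.5% of all tested genes for Oxali and 15.7% and 12.4% for Cispl. The count after Cispl was thus no larger than the share over all genes. Vcl, encoding vinculin, rose by 0.32 ± 0.04 after Oxali (DESeq2 adjusted p = 1.59e-13) and had 0.03 ± 0.04 after Cispl, with a called difference between the drugs of 0.30 ± 0.04 (DESeq2 adjusted p = 2.88e-11). Tln1, encoding talin, rose by 0.18 ± 0.05 after Oxali (DESeq2 adjusted p = 0.000652, lost without replicate 1 of Oxali at 0.126). Itga5, an integrin subunit, rose by 0.21 ± 0.05 after Cispl (DESeq2 adjusted p = 8.34e-05). Itgb1, its partner, and Abl1, a tyrosine kinase that phosphorylates caveolin-1, had 0.11 and -0.17 after Oxali, with calls lost in 3 and 4 of 14 alternatives. Src, which also phosphorylates caveolin-1, had 0.09 ± 0.07 after Oxali and 0.11 ± 0.07 after Cispl and no call.

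The clathrin coat, the other major endocytic machinery, had 3 of 12 genes called higher and 2 lower after Oxali (median 0.09) and 6 higher and 0 lower after Cispl (median 0.17), against 10.7% and 9.5% of all tested genes for Oxali and 15.7% and 12.4% for Cispl. Clta, a clathrin light chain, rose by 0.41 ± 0.06 after Cispl (DESeq2 adjusted p = 6.56e-10), as did Cltb, the other light chain, by 0.37 ± 0.11 (DESeq2 adjusted p = 0.00295, lost without replicate 2 of control or replicate 1 of Cispl, with adjusted p up to 0.166). Ap2a2, an adaptor subunit, rose by 0.21 ± 0.04 after Cispl (DESeq2 adjusted p = 1.89e-05). Of the 6 calls after Cispl only those of Clta and Ap2a2 held in all 14 alternatives. None of the 5 calls after Oxali did, among them Epn2 at 0.29 and Ap2b1 at -0.15. The heavy chain gene Cltc had -0.12 ± 0.04 after Oxali (DESeq2 adjusted p = 0.0328) and -0.05 ± 0.04 after Cispl (DESeq2 adjusted p = 0.375). Of the flotillins, which form other membrane domains, Flot1 had -0.23 ± 0.09 after Oxali (DESeq2 adjusted p = 0.0452) and Flot2 0.14 ± 0.06 after Cispl (DESeq2 adjusted p = 0.0400), and these calls were lost in 10 and 9 of 14 alternatives.

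Markers of further cell types, some rich in caveolins, were looked up in every library. Of the adipocyte markers 4 of 5 were below 10 normalised counts throughout, as were all 4 striated muscle markers and 2 of 3 leukocyte markers. The exception among the adipocyte markers was Pparg, at 379 and 359 in control, 331 and 379 after Oxali and 507 and 516 after Cispl. It rose by 0.47 ± 0.14 after Cispl (DESeq2 adjusted p = 0.00381) and had -0.53 ± 0.14 in Oxali against Cispl (DESeq2 adjusted p = 0.00136). The former call was lost without replicate 2 of control or either Cispl library (adjusted p up to 0.125), and the latter without replicate 1 of Oxali or either Cispl library (adjusted p up to 0.174). The defining adipocyte marker Adipoq was at or below 0.980. Fibroblast and mesenchymal markers were abundant, with summed counts of 174195 to 243668 and 170223 to 183606. Of the prostate epithelium and carcinoma list Pbsn and Krt5 were at 0 in all libraries and Epcam at or below 1.97, whereas Krt19 had 1932 to 2578 and Cdh1 369 to 573. Of the 5 fibroblast markers 1 was called higher and 3 lower after Oxali, where 10.7% and 9.5% of all tested genes were. After Cispl 0 were called higher and 2 lower, against 15.7% and 12.4%. Of the 5 mesenchymal markers 1 was called higher and 1 lower after Oxali, and 1 higher and 2 lower after Cispl, against the same shares. Their narrow sum thus held changes in both directions. Dcn had 3493 and 3676 normalised counts in control and 4079 and 3708 after Cispl. The summed fibroblast counts, mostly Col1a1 and Col1a2, were 228253 to 243668 in control, 186433 to 187285 after Oxali and 174195 to 177589 after Cispl. Pdgfra, a fibroblast marker chosen for mention after its values were seen, went against this sum, with a rise by 0.46 ± 0.08 after Oxali (DESeq2 adjusted p = 3.52e-07), 0.09 ± 0.08 after Cispl (DESeq2 adjusted p = 0.467) and a difference between the drugs of 0.38 ± 0.08 (DESeq2 adjusted p = 5.81e-05, lost without replicate 2 of Oxali at 0.0573). The part of these markers in the caveolin and cavin values was not tested.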

How the data were processed

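RNA-seq libraries were made with a stranded poly(A) kit. Per gene, the authors deposited expected counts from RSEM (version 1.3.0, with STAR 2.5.3a and GRCm38.p6 per the submitters' processing notes), unscaled and with reads that match several genes divided among them. The methods of the study name a different counter. Symbols and positions came from GENCODE M21, where 54409 of 54446 identifiers matched. Expected counts were rounded, and a gene needed 10 or more counts in 2 or more libraries. A DESeq2 model (version 1.42.0, R 4.3.3) of group over the 6 libraries was used, with Wald tests, unshrunken log2 fold changes, independent filtering at 0.1 and Benjamini-Hochberg adjustment over all tested genes (threshold 0.05). The fits were tested on simulated data. Alternatives were edgeR (version 4.0.16), TMM or total-count scaling, other low-count filters, a replicate block, fits without independent filtering or to the 4 libraries compared, each library left out, and the longest transcript as gene length. Members and lists were chosen with earlier results of these data known. Named are all members, the nearest tested neighbours, the 5 genes nearest Cav2 and 3 nearest Cav1, and from each list the 3 smallest adjusted p for each drug and untested genes. Cltc, Dnm1, Dnm2, Dnm3, Ehd1, Pacsin2 and Src, and the markers Col1a1, Col1a2 and Dcn, were added after their values were seen. Some marker genes are not reported here.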

Additional observations from a re-analysis of the deposited data

How the results depend on the processing

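Over all genes, calls for Oxali against control numbered 3028, and 4618 with edgeR. For Oxali against Cispl they numbered 2977, and 4773 with edgeR. With the replicate number as a block the counts were 1958 and 1861. Leaving out each library in turn gave 1213 to 2159 calls for Oxali and 2089 to 3021 for Cispl against control, and 1184 to 2453 between the drugs, where a lone library was assumed to vary like the others. Calls among the 4 genes other than Cav2 were 1 to 2 for Cispl when a library was left out. The caveola neck list had 5 calls for Oxali with edgeR and 0 to 2 when a library was left out, and 4 to 7 between the drugs. The difference of Cav1 between the drugs ranged from -0.023 without replicate 1 of Cispl, a reversal, to 0.048 without replicate 2. That of Cav2 was 0.03 with total-count scaling. The cause of these shifts was not tested. The replicate block changed no call of a caveolin or cavin gene. The labels do not pair the replicate numbers, and same-numbered libraries deviated together with correlations of 0.07 for control and Oxali, -0.05 for control and Cispl and -0.19 for Oxali and Cispl. Calls against control that held in all 14 alternatives were those of Cav1 for both drugs and Cavin2 for Oxali. With 2 libraries in each group, the calls of Cavin1 for Oxali and of Cavin3 for Cispl against control were each lost in 3 of 14 alternatives. Each of these left out 1 of the 4 libraries compared, which also lowered the number of calls over all genes. The direction of both changes held in all 14 alternatives. The call of Cavin1 between the drugs held in all 14 alternatives.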
